A study of Mus musculus with 10 samples.

Results

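Ran, the small GTPase that gives nuclear transport its direction, was followed together with its regulators, the importins and exportins it controls, and the nucleoporins of the channel. The list held 42 genes of the pathway. A probe set of the array is a group of short probes read as 1 signal. A gene was counted as measured where at least 1 probe set named it and no other gene, which was so for 41 of the 42, against 18193 genes on the whole array. The missing one was Nutf2, the carrier that returns Ran to the nucleus, which has no expression value here, though its promoters are counted below. Together the 41 genes had 115 such probe sets, and each gene was read at the probe set of highest mean, with every probe set of Ran shown. Ran itself was picked on its lower signal in cells with homozygous loss of SHP-1. Its values in that comparison are therefore a description, with no test.

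The cells were CD4+CD25+ T cells, which include the regulatory T cells, taken untreated from lymph nodes of BALB/c mice aged 17 to 19 days. SHP-1 is a tyrosine phosphatase that dampens signals from the antigen receptor and is encoded by Ptpn6. There were 4 arrays of wild-type cells (WT), 3 of cells heterozygous for SHP-1 knockout (he) and 3 of homozygous cells (me), whose mice have the motheaten phenotype. The labels name no restriction of the loss to a cell type, and motheaten mice are known for inflammation of many tissues. The arrays are labelled biological replicates of a mouse of each genotype. The labels do not say whether animals were pooled.

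Ran carries GTP in the nucleus, where its exchange factor Rcc1 sits on chromatin, and GDP in the cytoplasm, where Rangap1 sets off hydrolysis. Importins bind cargo in the cytoplasm and let it go on meeting Ran-GTP, whereas exportins need Ran-GTP to hold their cargo. In T cells this traffic brings transcription factors such as NFAT, NF-kappaB and Foxp3 into the nucleus and takes tRNA, microRNA precursors and ribosomal subunits out.

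Several features of the arrays bear on every value that follows. Values are log2(intensity + 32) after quantile normalisation. At the brighter probe set of Ptpn6 the WT arrays read 9.55, 9.63, 9.83 and 9.81, the he arrays 9.30, 9.33 and 9.54 and the me arrays 8.84, 9.08 and 9.05, so the order of the genotypes matched the labels. The arrays fell into 2 sets that the genotypes do not explain: set A held WT 1, WT 2, he 1, me 1 and me 3, and set B the other 5. The sets were found from the values themselves, since no label records how the arrays were made. Arrays of the same set correlated at 0.97 to 0.996 over all probe sets, and arrays of different sets at 0.854 to 0.944. All 3 he arrays came from females by their Xist and Y-linked signal, while WT and me held both sexes. Foxp3 read 10.60 to 11.58 over the arrays, with set B above set A by 0.61. The means of Foxp3, Cd4, Cd3e and Il2ra lay above the median level of all probe sets. The ratio of 3′ to 5′ signal of the Gapdh control, a measure of RNA quality and of amplification, was 9.919 to 13.83 in me, above the 7.843 to 9.531 of WT. The same ratio of the actin control was 12.15 to 13.95 in me, inside the 11.99 to 17.71 of WT. Genes of plasma cells were also higher in me (7 of 8 listed genes, with a summed intensity of 4592 to 9996 for WT, 4673 to 9921 for he and 6188 to 16986 for me), while 4 of 4 measured marker genes of innate lymphoid and gamma-delta T cells were lower (1442 to 2930 for WT, 1071 to 2630 for he and 936 to 1206 for me). Of the 8 plasma cell genes, 3 had me above WT without overlap (0.813% of all genes): Jchain, Mzb1 and Ighm. Jchain, the farthest apart, read 7.03 to 7.11 in WT and 7.96 to 10.14 in me. Me minus WT was 0.33 for Prdm1, 0.03 for Sdc1 and Xbp1, 0.02 for Irf4 and -0.25 for Derl3. With array set as a block in the fit, 3 of the 8 were lower in me. Of other markers, 7 of 9 of B cells, 7 of 8 of neutrophils, 8 of 10 of macrophages and 5 of 9 of CD8 and NK cells were higher in me. With the block 0, 1, 3 and 3 of them were lower. Me lay above WT without overlap for Blnk of B cells, S100a8 and S100a9 of neutrophils, and Eomes and Cst7 of CD8 and NK cells. This was so for 0 of the macrophage genes. All of these but Cst7 had means below the median level of all probe sets. Of the 4 innate lymphoid and gamma-delta genes, 3 had me below WT without overlap (0.803% of all genes). Some markers differed far more between the array sets. Set B minus set A was 4.45 for Cd8a, 2.41 for H2-Ab1 and 1.13 for Lyz2, but -0.19 for Cd8b1. Me minus WT of Cd8a was -0.60 with no block and 0.15 with it. The part of RNA quality and of other cells in the results below was not tested. In such sorted but unseparated RNA, fewer cells of a type and less RNA per cell cannot be told apart.

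Ran signal in me was lower than in WT at 1 of its 6 probe sets without overlap of the arrays, and this was not the brightest one. At 1434578_x_at the WT arrays read 12.72, 12.90, 12.79 and 12.85, the he arrays 12.70, 12.72 and 12.87, and the me arrays 12.52, 12.46 and 12.44. All 3 me arrays lay below every WT and every he array, while he and WT overlapped. The mean of me was lower than that of WT by 0.34 ± 0.07 (SE), or 1.27-fold, and it was -0.33 within set A and -0.36 within set B. Ran was chosen for its lower signal in me, so this value is a description with no test. Against he, which shares the me arrays, the difference was -0.29 ± 0.08.

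The other probe sets of Ran gave smaller differences. At 1433569_x_at, the probe set of highest mean, the WT arrays read 13.69, 13.76, 13.65 and 13.81, the he arrays 13.63, 13.60 and 13.82, and the me arrays 13.75, 13.51 and 13.74. Only me 2 was low, and me minus WT was -0.06 ± 0.09, or 0.02 over set A alone and -0.22 over set B alone. At 1439270_x_at the WT arrays spanned 13.17 to 13.42 and the me arrays 13.01 to 13.27, a difference of -0.17 ± 0.09. At 1438977_x_at WT spanned 12.18 to 12.46 and me 12.08 to 12.27, also a difference of -0.17 ± 0.09. At 1436490_x_at the difference was -0.09 ± 0.16, and at 1460551_at it was -0.05 ± 0.24. These ranges overlapped at 5 of 6 probe sets, and all 6 differences lay below 0. Every name but 1460551_at carries the suffix _x, which the maker gives to probe sets with probes that match other transcripts too. Ran has processed copies elsewhere in the genome, so their signal may not be of Ran alone. Signal at 1460551_at was itself split by array set, with a set B minus set A difference of -0.54. He minus WT ran from -0.18 to -0.01 over the 6 probe sets, with groups that overlapped at each.

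**Figure D1:**
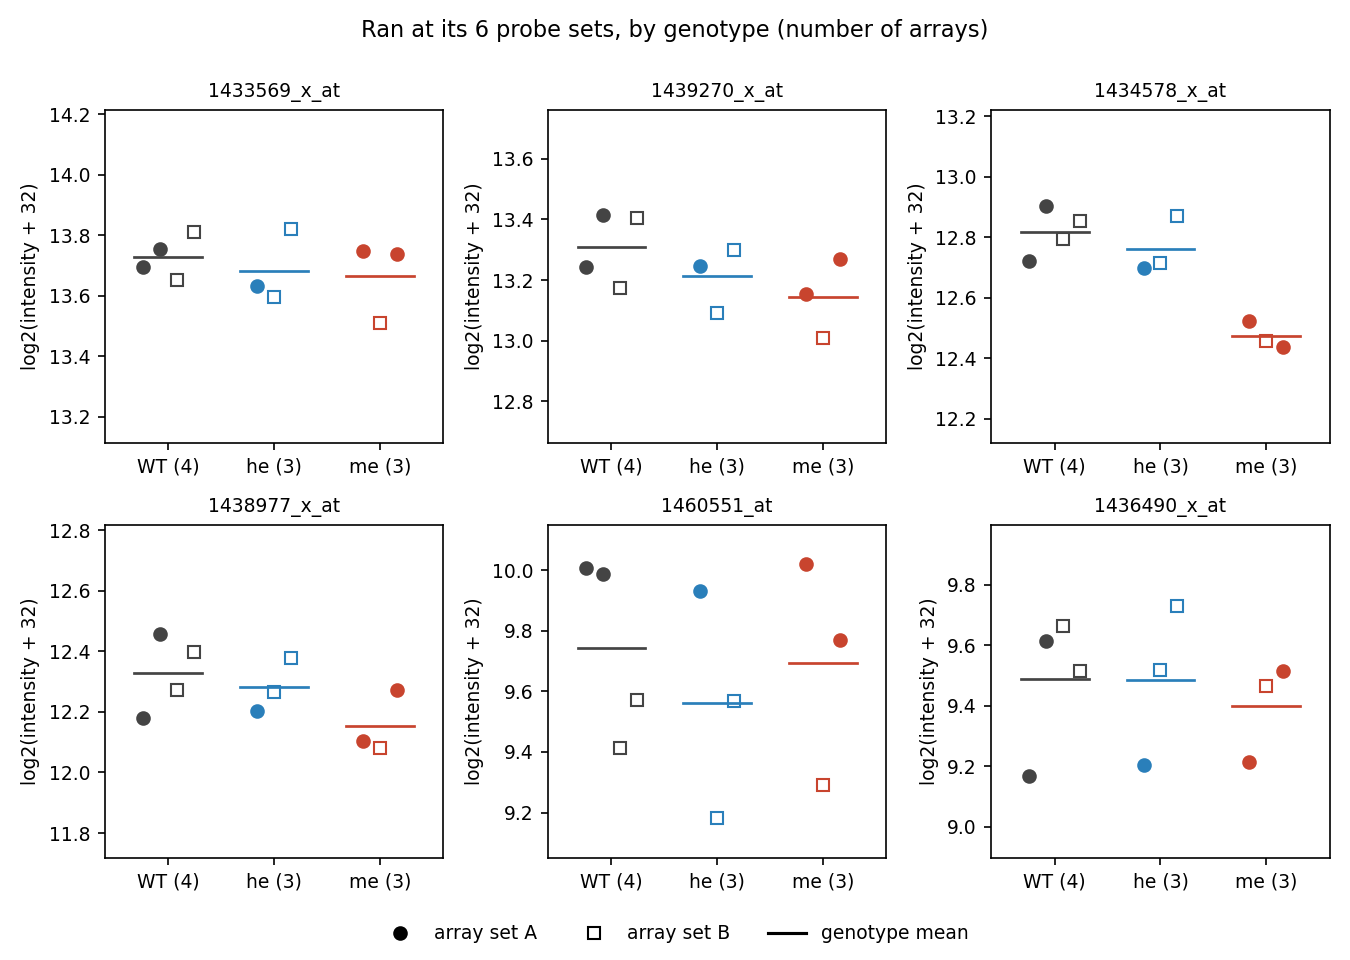
Each panel plots 1 of the 6 Ran probe sets, with log2(intensity + 32) on the y axis (the same span in each panel) and the arrays by genotype on the x axis; filled circles are array set A, open squares set B, and lines are genotype means. The 3 me arrays lie below all WT and he arrays at 1434578_x_at, and overlap WT at the other panels.

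The sequence before the gene start was read for Ran and for 3 receptors whose values are given further on. The 250 bases before the start of Ran (chr5:129019906-129020155, plus strand), Kpnb1 (chr11:97187893-97188142, minus strand), Tnpo2 (chr8:85036643-85036892, plus strand) and Xpot (chr10:121626333-121626582, minus strand) come from RefSeq on GRCm38.p6. They are shown 5′ to 3′ on the strand of the gene because Ran, Tnpo2 and Xpot hold the E-box CACGTG, known as a site of MYC and other helix-loop-helix factors, and Kpnb1 does not. RefSeq lists another Tnpo2 promoter (chr8:85036936-85037185, plus strand), at a start downstream of the one shown, and it holds no CACGTG. Capitals mark CACGTG and, in Ran, CGCATGCG, the core of the site of NRF1.
Ran: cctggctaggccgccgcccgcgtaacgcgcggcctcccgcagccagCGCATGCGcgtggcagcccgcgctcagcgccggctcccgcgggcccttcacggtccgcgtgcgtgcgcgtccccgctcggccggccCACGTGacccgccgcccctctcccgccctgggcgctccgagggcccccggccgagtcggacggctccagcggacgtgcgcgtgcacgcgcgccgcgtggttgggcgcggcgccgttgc
Kpnb1: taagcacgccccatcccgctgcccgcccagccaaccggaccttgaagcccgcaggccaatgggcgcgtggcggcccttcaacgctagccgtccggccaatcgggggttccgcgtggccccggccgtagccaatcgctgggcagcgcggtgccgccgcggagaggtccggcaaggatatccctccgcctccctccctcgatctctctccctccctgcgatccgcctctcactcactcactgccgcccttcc
Tnpo2: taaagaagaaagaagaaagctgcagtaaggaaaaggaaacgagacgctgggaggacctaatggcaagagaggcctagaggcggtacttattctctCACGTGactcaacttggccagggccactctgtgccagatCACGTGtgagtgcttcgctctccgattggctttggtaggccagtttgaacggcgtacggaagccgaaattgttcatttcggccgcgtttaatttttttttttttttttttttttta
Xpot: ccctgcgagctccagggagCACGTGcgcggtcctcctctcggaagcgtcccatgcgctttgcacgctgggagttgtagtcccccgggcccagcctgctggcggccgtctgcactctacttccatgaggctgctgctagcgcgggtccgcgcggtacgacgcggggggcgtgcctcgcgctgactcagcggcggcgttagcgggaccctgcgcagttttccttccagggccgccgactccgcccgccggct
Ran was the only member with both motifs, the E-box 118 bases and the NRF1 core 204 bases before its start. RefSeq promoters were matched for 35 members, 43 promoters in all; those of Kpna1, Kpna3, Kpna6, Cse1l, Xpo4, Xpo7 and Ranbp3 were not matched. The E-box was in 6 of the 43 (14.0%), those of Ran, Ranbp2, Tnpo2, Ipo7, Xpot and Nup93, against 6.02% of 32851 promoters of the same length. The NRF1 core was in 5 (11.6% against 1.55%), those of Ran, Xpo5, Nup50, Nup62 and Nup107. GGGCGG was in 72.1% against 32.7%, CCAAT in 39.5% against 33.8% and TATAAA in 9.3% against 12.4%, on either strand and with overlaps between motifs allowed. Member promoters were also richer in G and C, with a median of 64.4% against 52.4%. A match in these letters is a description of the sequence and not evidence that a factor binds.

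Among the regulators of Ran, only Ranbp1 separated me from WT. Ranbp1 binds Ran-GTP in the cytoplasm and helps Rangap1 to release it from transport receptors. Its WT arrays read 10.998, 11.029, 10.958 and 10.992, its he arrays 10.783, 10.725 and 11.068, and its me arrays 10.941, 10.546 and 10.635. The me arrays lay below all WT arrays, me 1 by a small margin, and he spanned both groups. The me mean was lower than WT by 0.29 ± 0.11, or 1.22-fold, and he minus WT was -0.14 ± 0.11. Ranbp1 was the only member of the 41 whose me arrays were all below WT at the probe set of highest mean, and none had me above WT. Of all genes, 0.803% had me below WT without overlap and 0.813% had me above.

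The enzymes at the ends of the Ran cycle did not separate the genotypes. Rcc1 differed by 0.07 ± 0.26 between me and WT, in a gene whose WT arrays ranged from 7.77 to 8.49. Rangap1 read 8.80, 8.97, 9.65 and 9.69 in WT and 8.77, 9.68 and 9.69 in me. Set B was above set A by 0.68, with me 3 of set A at the level of set B, and me minus WT was 0.11 ± 0.34. Ranbp2, the large nucleoporin that anchors SUMO-modified Rangap1 at the pore, differed by -0.01 ± 0.19. Ranbp3, a cofactor of Xpo1, differed by 0.12 ± 0.19.

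The alpha importins are adaptors that read the classical nuclear localisation signal and ride on Kpnb1. Me minus WT was 0.05 ± 0.10 for Kpna1, 0.14 ± 0.30 for Kpna2, 0.02 ± 0.15 for Kpna3, -0.02 ± 0.15 for Kpna4 and 0.00 ± 0.24 for Kpna6. Of these 5 genes 1 was lower in me and 4 were lower in he, by 0.05 to 0.13. Kpna2, which rises in dividing cells, read 11.89, 11.67, 11.11 and 11.61 in WT and 11.96, 11.19 and 11.97 in me, and me 2 lay with the lowest WT array. None of the 5 passed the test in any comparison.

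The beta importins are the receptors that carry cargo through the pore and release it on Ran-GTP. Among them, Ipo4 and Kpnb1 had the most negative me minus WT differences. Kpnb1, importin beta itself, was read at 1451967_x_at, which carries the suffix _x too. Its WT arrays read 10.75, 10.96, 10.48 and 10.64, the he arrays 10.59, 10.37 and 10.48, and the me arrays 10.46, 10.18 and 10.52. All me arrays were below 3 of the 4 WT arrays, and me 3 lay just above WT 3. The me mean differed from WT by -0.32 ± 0.13. Within set A alone the difference was -0.37 and within set B -0.38, and with array set as a block it was -0.37 ± 0.07 (limma adjusted p = 0.604 over all probe sets). Another Kpnb1 probe set, 1448526_at, gave -0.33 ± 0.25, and the remaining ones gave -0.06 and 0.02.

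For Ipo4, which imports histones and ribosomal proteins, the WT arrays read 9.11, 9.48, 8.97 and 8.83, the he arrays 9.02, 8.83 and 8.31, and the me arrays 8.80, 8.34 and 8.90. Groups overlapped, with WT 2 highest and he 3 and me 2 lowest. Ipo4 differed from WT by -0.42 ± 0.22 in me and by -0.38 ± 0.22 in he. With array set as a block they were -0.49 ± 0.13 and -0.30 ± 0.13. A second probe set of Ipo4 gave 0.01 ± 0.21 for me minus WT and -0.22 for he minus WT.

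The transportins differed among their own probe sets. Tnpo1, the receptor of hnRNP A1 and other RNA-binding proteins, gave 0.04 ± 0.15 at its brightest probe set. At 1419864_x_at it read 8.24, 8.28, 8.39 and 8.35 in WT against 8.14, 8.10 and 7.92 in me, without overlap, a difference of -0.26 ± 0.08. Tnpo2, its close relative, gave WT values of 8.32, 8.35, 7.89 and 7.97, he values of 8.16, 7.84 and 7.87, and me values of 8.14, 7.86 and 8.11. Within each array set every he and me array of Tnpo2 lay below every WT array. Its me minus WT difference was -0.10 ± 0.14, or -0.15 ± 0.05 with array set as a block. At 1425592_at me was below WT without overlap, with a difference of -0.14 ± 0.07, while he differed by 0.01. At 1425593_at me minus WT was 0.08 ± 0.14 and he minus WT 0.00.

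Ipo9, a carrier of histones and actin, had the same pattern within sets. WT values were 9.18, 9.28, 8.60 and 8.63, he values 9.06, 8.47 and 8.50, and me values 9.11, 8.44 and 9.15. The me mean differed from WT by -0.02 ± 0.25 with no block and by -0.13 ± 0.05 with the block. Ipo9 is described because of these values and outside the rule for named genes. The other beta importins had me minus WT differences of -0.02 for Tnpo3, which imports splicing factors, 0.04 for Ipo5, 0.00 for Ipo7, 0.04 for Ipo8 and -0.01 for Ipo11, with SEs of 0.07 to 0.30. Ipo13 differed by -0.23 ± 0.26, and its set B minus set A difference was 0.63.

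Among the exportins, Xpot, the carrier of tRNA, had the most negative differences from WT in he and me. WT values were 10.33, 10.15, 9.99 and 10.11, he values 10.09, 9.96 and 9.68, and me values 10.17, 9.80 and 10.04. The groups overlapped, and within set B the he and me arrays were below both WT arrays. Xpot differed from WT by -0.14 ± 0.13 in me and by -0.24 ± 0.13 in he, or -0.18 ± 0.08 and -0.19 ± 0.08 with the block. Xpo1, the main exporter of proteins and ribosomal subunits, differed between me and WT by -0.01 ± 0.18. Xpo5, which exports microRNA precursors, differed by 0.08 ± 0.18, and Cse1l, which returns the alpha importins to the cytoplasm, by 0.01 ± 0.23. Xpo4, Xpo6 and Xpo7 gave -0.08, 0.02 and -0.04. Of the 7 exportins 4 were lower in me and 3 in he.

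Of the 11 nucleoporins 7 were lower in me and 9 in he, and none passed the test. Me minus WT was -0.16 ± 0.13 for Nup155 and -0.09 ± 0.26 for Nup93, both of the inner ring, and -0.05 ± 0.25 for Nup205 of the same ring. It was -0.05 ± 0.14 for Nup98 and -0.04 ± 0.12 for Nup62, whose disordered repeats fill the channel. The Y-complex subunits Nup107 and Nup133 gave 0.03 ± 0.15 and -0.12 ± 0.58. Nup50 and Nup153 of the nuclear basket gave 0.08 ± 0.22 and 0.00 ± 0.19, Nup210 of the membrane ring 0.06 ± 0.22 and Nup214 of the cytoplasmic face 0.00 ± 0.15. He minus WT was below 0 for 9 of the 11, with a median of -0.13, and it was -0.29 ± 0.26 for Nup93, -0.17 ± 0.14 for Nup98 and -0.16 ± 0.12 for Nup62. Nxf1, the carrier of mRNA, which works without Ran, differed by -0.01 ± 0.13 in me and by -0.04 ± 0.13 in he.

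**Figure D2:**
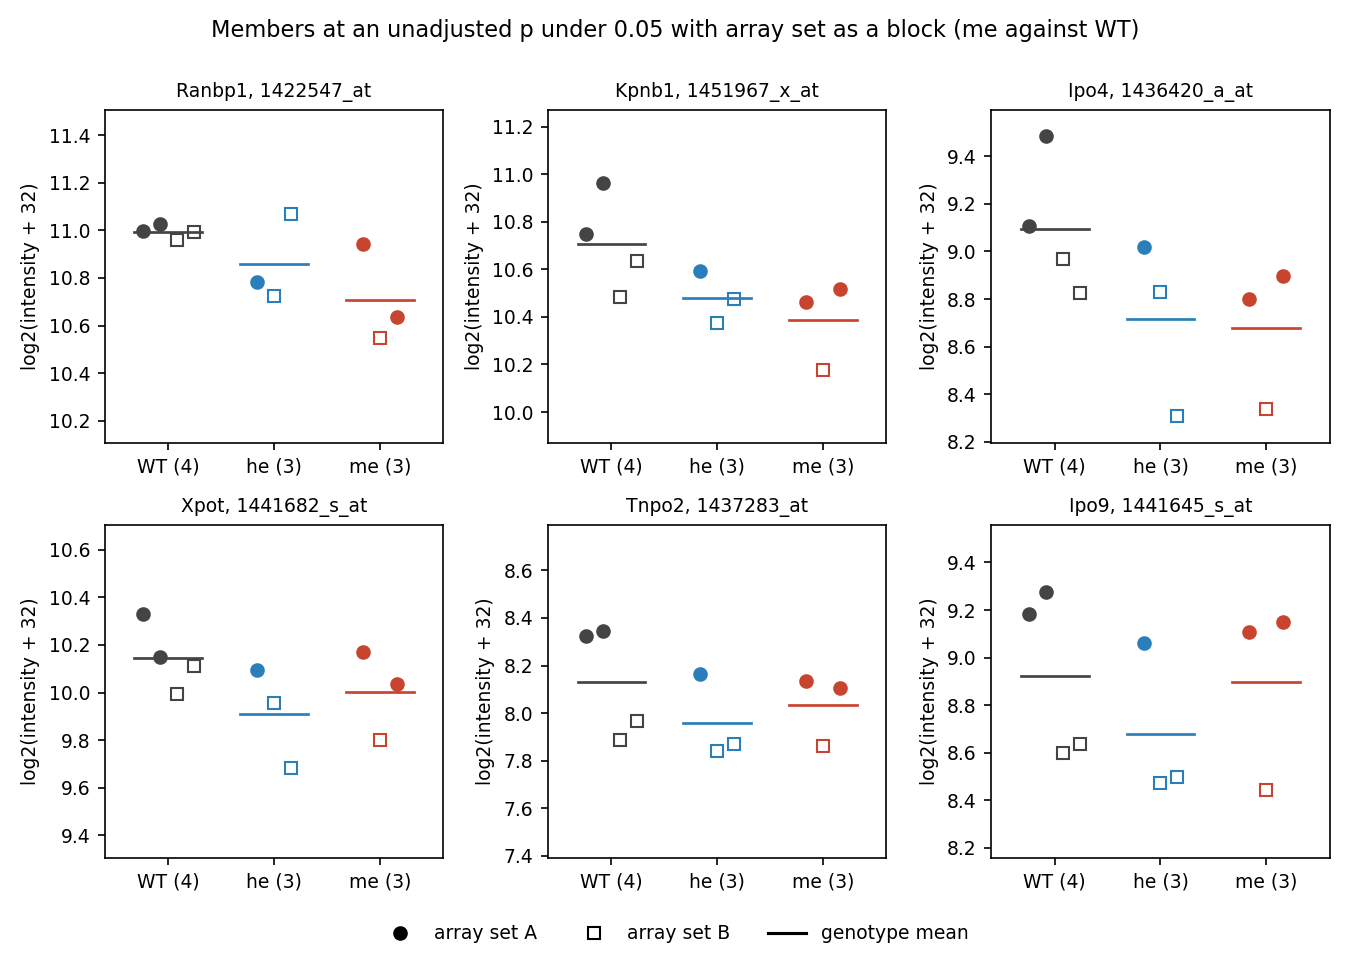
The panels plot Ranbp1, Kpnb1, Ipo4, Xpot, Tnpo2 and Ipo9 as log2(intensity + 32) (y axis, the same span in each panel) by genotype (x axis); filled circles are array set A, open squares set B, and lines are genotype means. Tnpo2 and Ipo9 are split by array set, with set B lower, and in Ranbp1 the 3 me arrays lie below the 4 WT arrays.

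Over the 41 measured members, 23 were lower in me than in WT and 18 higher, with a median difference of -0.01. Over all 18193 genes 49.8% were lower, and 47.8% of the 11379 at or above the median level, against 56.1% of members. This comparison is the one from which Ran was picked, and nothing is read from the share. With array set as a block 28 of the 41 (68.3%) were lower in me, with a median of -0.05, against 50.6% of all genes, from which nothing is read either. None of the 41 passed an adjusted p of 0.05 in limma across 45037 probe sets, where 0 probe sets (0%) were called with no block and 3 (0.00666%) when array set was a term. Those 3 were 2 probe sets of Socs2 and 1 of Tesc. With no block 280 probe sets had an unadjusted limma p under 0.05. At that unadjusted limit 2 members, Ranbp1 and Kpnb1, were found with no block, against 0.874% of all genes. With the block 5.05% of all genes, and 748 of the 11379 at or above the median level, were under the limit. So were 6 members, Ranbp1, Kpnb1, Tnpo2, Ipo4, Ipo9 and Xpot, all lower in me. The count with the block was 3 without me 2, 3 when me 3 was put in set B, and 9 with weights for the arrays and no block, a setting added after seeing the data in which 26.9% of all genes were under the limit. The count with no block was 0 without WT 1, without WT 2 and without me 2, 1 without WT 4 and without me 3, and 0 with no normalisation, with median centring or with a filter on low values.

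Me 2 weighed most on the direction of the list. With no block, 13 members were lower in me without it and the median was 0.07, and without me 3 there were 30 lower. Me 2 is the only me array of set B, so the fit without it mixes in the difference between the sets. With the block 20 were lower without me 2, with a median of 0.00, and 30 without me 3. Within array set A the median me minus WT difference of the members was 0.00, and within set B, where me 2 is the only me array, it was -0.13.

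The comparison of heterozygous cells with WT uses the same 4 WT arrays. He was lower than WT for 30 of 41 members (73.2%), with a median of -0.11, where 53.1% of all genes and 55.7% of the 11379 genes at or above the median level were lower. All 41 members lay at or above that level. With the block 30 were lower too, and the median was -0.05. No member passed, and 0% of probe sets were called with or without the block, with 134 and 961 at an unadjusted limma p under 0.05. At the probe set of highest mean no member had he below or above WT without overlap, where 0.583% and 0.308% of all genes did. Of all 115 member probe sets, 2 had he below WT without overlap and 0 above, and 4 had me below WT and 0 above. The share over all probe sets was not counted, so nothing is read from these counts. At an unadjusted limma p under 0.05 no member was found at the probe set of highest mean with no block (0.335% of all genes). With the block 2.29% of all genes, and 323 of the 11379 at or above the median level, were under that limit. So were 5 members, Kpnb1, Tnpo2, Ipo4, Ipo9 and Xpot, all lower in he. That count was 0 without he 1, the only he array of set A, and 0 with me 3 in set B. He minus WT with the block was -0.18 ± 0.07 for Kpnb1, -0.12 ± 0.05 for Tnpo2 and -0.14 ± 0.05 for Ipo9. Since all he arrays are female, sex and the he genotype overlap; with array set and sex as terms the count was 1.

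Between me and he, 16 members were lower in me and 25 higher, with a median of 0.08. Of all genes 46.4% were lower, and of those at or above the median level 42.8%. With the block 17 members were lower, and their median was 0.01. No member separated these groups at the probe set of highest mean, where 0.912% of all genes were lower and 1.58% higher without overlap. No probe set was called in either fit, and 301 and 1447 had an unadjusted limma p under 0.05. Kpnb1 was at an unadjusted limma p of 0.0401 with the block, with a difference of -0.18 ± 0.08, and no other member was under 0.05 in either fit (0.841% of all genes with no block and 3.53% with it). With the array weights added after seeing the data 24 members were under that limit, where 36.0% of all genes were.

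**Figure D3:**
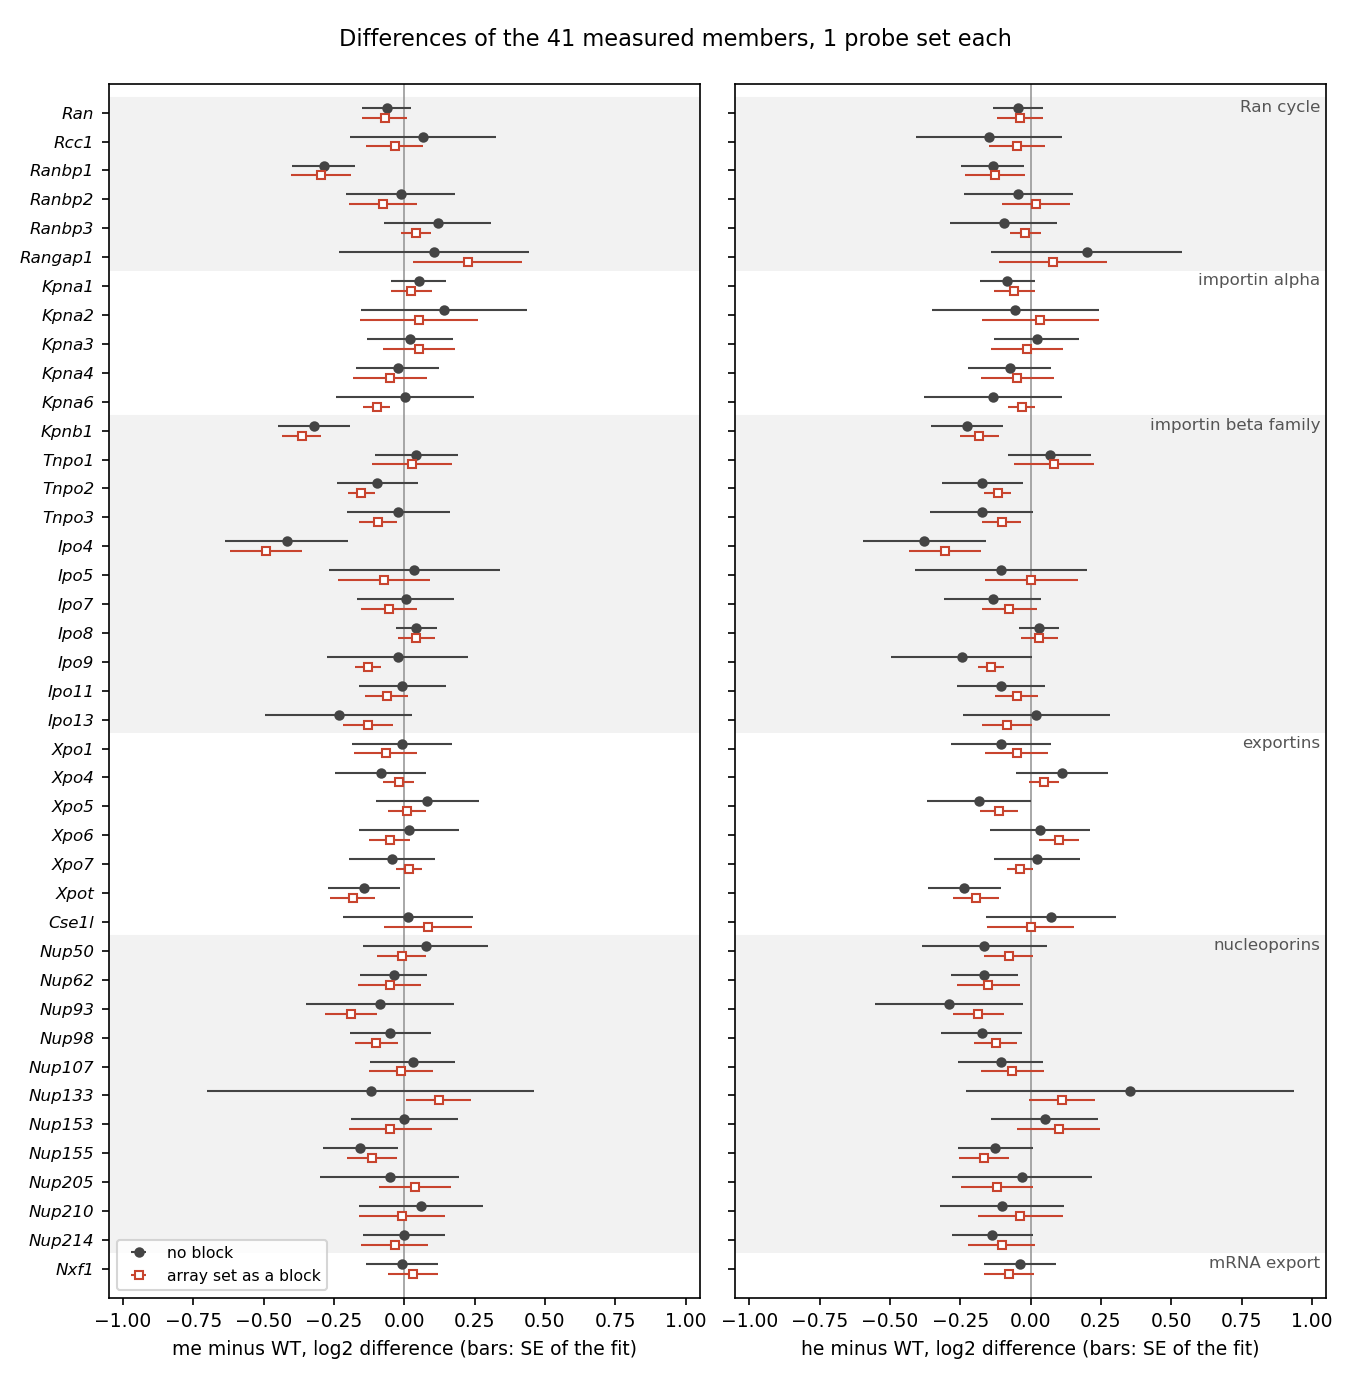
The log2 differences of the 41 members are plotted on the x axis, me minus WT on the left and he minus WT on the right, with 1 gene per line in role groups; circles show no block, squares array set as a block, and bars the SE of each fit. Ipo4, Kpnb1 and Ranbp1 lie farthest to the left in me, and the bars shorten with the block for most members.

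Members, like the whole array, differed more between the array sets than between genotypes. Of 41 members 31 (75.6%) were lower in set B, against 55.2% of all genes, and 19 did not overlap between the sets, against 54.2% of all genes. The median size of the difference between sets was 0.36, against 0.05 for me minus WT and 0.11 for he minus WT, and it was larger than the me minus WT difference for 36 members (87.8%). Over all genes the median sizes were 0.28 between the sets and 0.06 for me minus WT, and the first was the larger for 87.9%. Over the 11379 genes at or above the median level, where all 41 members lie, these values were 0.39, 0.07 and 88.8%. The sets were made from these values, so this has no test. Probe sets of the same gene went opposite ways: Nup133 differed by 1.45 at 1436816_at and by -0.65 at 1423787_at, Kpna6 by -0.59 and 1.16, Nup62 by up to 0.64 and down to -0.75, and Kpnb1 by up to 0.63 and down to -0.59. Of 33 members with several probe sets, 20 had both signs between the sets and 21 had both signs for me minus WT. The cre hybridisation control read 13191.6 to 27387.9 in set A and 10770.2 to 16149.6 in set B. The lowest of set A was me 3, inside the range of set B, and the next lowest, me 1, read 21736.1.

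**Figure D4:**
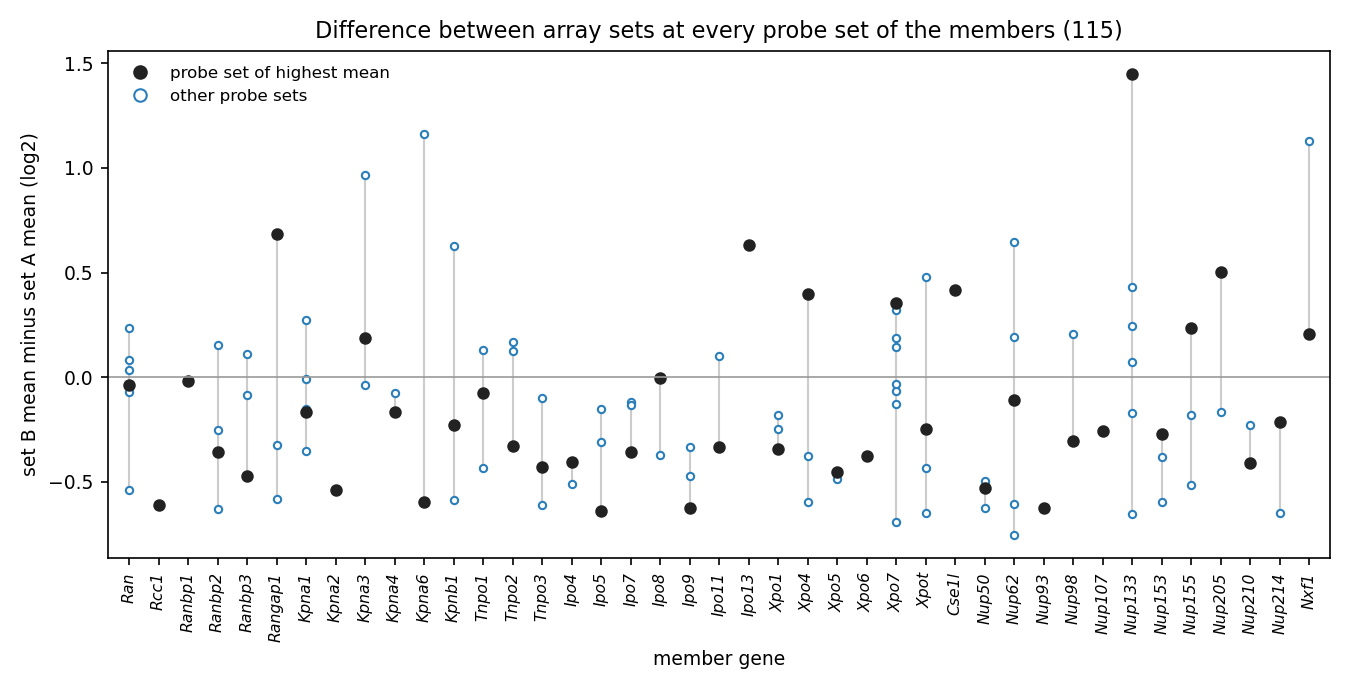
The mean of set B minus the mean of set A (y axis, log2) is plotted for every member probe set by gene (x axis); filled points are the probe set of highest mean, open points the others, and lines join the probe sets of a gene. Probe sets of Nup133, Kpna6, Nup62 and Kpnb1 lie on both sides of 0.

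Genes of the same pathway outside the list gave no call either, in any comparison or fit. Of 17 other nucleoporins measured of 19 listed, 12 were lower in me, with a median of -0.08; Seh1l of the Y complex differed by -0.27 ± 0.12, Nup88 of the cytoplasmic face by -0.17 ± 0.13 and Nup43 by -0.14 ± 0.09. Of 11 other receptors and Ran factors 8 were lower (median -0.02), with Rcc2 at -0.15 ± 0.30, Rangrf at -0.12 ± 0.13 and Ranbp3l at 0.11 ± 0.16. Of 17 partners of mRNA export 11 were lower (median -0.01), among them Poldip3 at -0.13 ± 0.08, Mcm3ap at -0.12 ± 0.07 and the THO subunit Thoc2 at -0.11 ± 0.09. Of 9 listed genes of the SUMO pathway that modifies Rangap1, 5 were measured and 0 were lower in me (median 0.05). Sae1 differed by 0.10 ± 0.15, Senp1 by 0.07 ± 0.13 and Senp2 by 0.05 ± 0.20. With array set as a block 2 of the 5 were lower in me (median 0.02). In he 5 were lower with no block and 3 with it.

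Genes of proliferation were more often higher than lower in me. Of 19 measured, 4 were lower and the median was 0.13, or 0.03 with array set as a block; within set A it was 0.16 and within set B -0.16. Top2a, the topoisomerase of dividing cells, read 11.72, 11.53, 11.16 and 11.78 in WT against 11.90, 11.34 and 11.99 in me, a difference of 0.20 ± 0.24. Pcna, the clamp of DNA polymerase, differed by 0.15 ± 0.14 and the helicase subunit Mcm4 by -0.20 ± 0.16. None passed the test.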

How the data were processed

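The 10 arrays carried biotin-labelled RNA amplified from 20 ng of total RNA, per the labels' protocols. The authors deposited 1 table of linear intensity values for 45101 probe sets of the Affymetrix mouse array; how they summarised, background-corrected and scaled it is not given in the sources used here. The median intensity of an array was 148 to 188. Values were taken as log2(intensity + 32) and quantile normalised, 64 control probe sets were left out, and 45037 were fitted in limma 3.58.1 (R 4.3.3; lmFit and eBayes, 3 groups, 7 residual degrees of freedom, 6 with array set as a block). P-values were adjusted by Benjamini-Hochberg over all 45037, with a threshold of 0.05. An error after ± is the SE of the fit; n is 4 WT, 3 he and 3 me arrays, and this number and the split into array sets limit the precision. P-values compare a difference with the spread between these arrays, which with no block includes the difference between the array sets. The procedure was also run on simulated data with independent noise, a smaller spread than in these arrays and no array sets. The planted changes were larger than any difference of the members. That run cannot show how the fit performs on arrays split as these are.

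Probe sets were named by GEO's platform annotation: 34945 name 1 gene, 932 several and 9160 none. Of 77 entries in the lists of other pathway genes 69 were matched. The members and lists were chosen with earlier results of these data known. Genes named were Ran at all probe sets, up to 4 members per role group by the unadjusted p of me against WT and 2 by he against WT, members whose me and WT arrays did not overlap, and 3 genes per pathway list; other members are given by their difference. Alternatives were array set, sex and replicate number as terms, fits of 2 groups, array weights, a robust prior with an intensity trend, median centring or no normalisation, other pseudocounts (1 and 128), a filter that dropped the dimmer probe sets, the mean of all probe sets of a gene, and leaving out each array.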

Additional observations from a re-analysis of the deposited data

Results flagged for a closer look

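At the probe set of highest mean of Ipo8 (1426760_at), WT 2 stood apart from the other WT arrays: it read 9.16, the nearest read 9.32 and the highest 9.35, so that the gap was 0.859 of the whole range of the 4. This was the only one of 46 values tested that stood apart in WT, and about 1 in 20 groups of 4 shows such a gap by chance.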

How the results depend on the processing

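No probe set was called under any of the 12 other settings for he against WT and me against he, and for me against WT the count was 3 with array set as a block and 0 in the others. Members lower in me than in WT numbered 15 to 29 over 13 settings, the 15 with gene-by-gene array weights, which were added after seeing the data because the default estimate did not converge and is not given. Members lower in he numbered 27 to 38. Members lower in me than in he fell to 5 with no normalisation and to 4 with median centring. Median centring also gave medians of -0.24 for he minus WT and 0.21 for me minus he. The cause was not tested. Leaving out each array in turn gave, for me against WT, 13 to 30 members lower with no block and 20 to 30 with array set as a block, medians of -0.07 to 0.07 and -0.07 to 0.00, and 0 to 2 and 0 to 5 probe sets called. With the block 1 was called without WT 1 and 1 without WT 4. The 2 came without me 2 and the 5 without he 2. For he against WT it gave 24 to 35 and 23 to 35 members lower, medians of -0.18 to -0.05 and -0.12 to -0.02, and 0 calls. For me against he it gave 10 to 18 and 10 to 25 members lower, medians of 0.02 to 0.16 and -0.03 to 0.06, and 0 to 2 calls in both, the 2 without me 2. Ranbp1, Kpnb1, Ipo4 and Xpot kept their sign in both comparisons with WT in all 32 settings; Ran at 1433569_x_at changed sign in 2 for me against WT. With a replicate block no probe set was called, 23 members were lower in me and 30 in he than in WT, 16 were lower in me than in he, and no member was under an unadjusted limma p of 0.05. The deviations of same-numbered arrays from their group means correlated at -0.873 to 0.941 over 9 pairs, 5 of them over 0.1. Array set was not removed from these deviations, so they cannot show whether the numbers pair the arrays. Signal over background could not be judged, since detection calls are not used here.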
